A study of Zea mays with 4 samples.

Results

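Phenylalanine ammonia-lyase (PAL) genes were followed in the sixth leaf of maize under high and low nitrogen. The members were 10 listed gene names, of 43110 distinct loci in the table. Each name was looked up in the table, and where a name stood on several loci the locus with the highest mean FPKM was taken, which applied to GRMZM2G074604 alone. All 10 names were found. FPKM, the unit of all levels given here, gives fragments scaled by transcript length and by sequencing depth.

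The plants were the maize inbred B73, the line of the maize reference genome, grown in hydroculture after the endosperm had been removed. All seedlings first received 4 mM nitrogen as nitrate. The high nitrogen (HN) plants stayed at 4 mM, while the low nitrogen (LN) plants were moved to 0.04 mM once leaf number 3 had expanded, with calcium chloride added to keep calcium equal. Mature tissue of leaf 6 was sampled, and each treatment has 2 biological replicates, giving 4 libraries. Plants were harvested with leaf 6 fully expanded by the account of the growth measurements, while the RNA tissue is described as from an expanding leaf. Their age in days and the number of plants behind a library are not given in the sources used here.

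PAL removes ammonia from phenylalanine and yields cinnamate, and it thereby opens the phenylpropanoid pathway that leads to lignin, flavonoids, anthocyanins and wall-bound hydroxycinnamates. The ammonia that the reaction sets free is taken up again by glutamine synthetase. Plants carry several PAL genes, and in grasses some of the enzymes also accept tyrosine.

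The 10 genes fall into 3 groups of neighbouring genes and 1 single gene on B73 RefGen_v3. On chromosome 5, GRMZM2G074604 (186727239 to 186730980), GRMZM2G029048 (186776413 to 186780444), GRMZM2G334660 (186783199 to 186785900) and GRMZM2G170692 (186845785 to 186848361) lie within 121.1 kb. On chromosome 4, GRMZM2G160541 (143404315 to 143408521), GRMZM2G081582 (143491905 to 143496980) and GRMZM2G063917 (143539451 to 143542437) lie within 138.1 kb. On chromosome 2, GRMZM2G118345 (28677255 to 28680358) and GRMZM2G441347 (28745742 to 28748887) lie within 71.6 kb. In each of these 3 groups no other locus of the table lies within the span, apart from a second locus named GRMZM2G074604 with the bounds of the first. GRMZM2G153871 stands alone on chromosome 4 (232233178 to 232235607).

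The study's functional table names 4 of the 10 as PAL (GRMZM2G074604, GRMZM2G441347, GRMZM2G170692 and GRMZM2G081582). That table holds only genes the study picked on these libraries, as differentially expressed by its edgeR test. The other 6, the leading gene GRMZM2G029048 among them, are not named as PAL by any source used here and were taken as given in the family list, so the family sum and the shares rest on that list. RefSeq matched 8 of the 10 names. It gives PAL1 and pal3 as further names of GRMZM2G074604, and it lists GRMZM2G160541 as a transcribed pseudogene. How alike the neighbours are in sequence was not analysed here. Where genes of a family are near-identical, fragments may be split or shared between them, and each single level is uncertain to that extent.

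Across the libraries, 22889 loci had at least 1 FPKM in at least 2 libraries and were tested. The FPKM of all loci summed to between 1764398 and 1798408 in HN and between 1043303 and 1141129 in LN, and 27637 to 29359 loci were above 0 in a library. The number of fragments behind a value is unknown from FPKM, but the smallest values of low loci placed the relative depth of HN replicate 2, LN replicate 1 and LN replicate 2 at about 1.15, 1.41 and 1.74 times that of HN replicate 1. The leaf markers were high throughout: PEPC (GRMZM2G083841), the first carbon fixing enzyme of C4 mesophyll, had 19557 and 13126 FPKM in HN and 4803 and 2630 FPKM in LN, and the Rubisco small subunit GRMZM2G113033 of the bundle sheath had 8857 and 11321 FPKM in HN and 4677 and 2387 FPKM in LN. PPDK (GRMZM2G306345), which regenerates the C4 acceptor, also had both LN libraries below both HN libraries, and none of these 3 markers was called. GRMZM2G001696, listed as a bundle sheath marker but not named by any source here, had 1971 and 3173 FPKM in HN and 1663 and 2655 FPKM in LN. Its treatments overlapped (log2 fold change -0.25). The part of the shift in the 3 named leaf markers in the PAL values was not tested. The meristem gene KN-1 was listed at 0 in all 4 libraries. In whole leaf tissue, a change in the number of cells that express a gene and a change in RNA per cell cannot be told apart.

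Summed over the 10 genes, PAL expression was 108 and 342 FPKM in HN and 891 and 776 FPKM in LN. Both LN libraries lay above both HN libraries, and the mean was 3.70 times as high in LN (225 ± 165 FPKM in HN, 833 ± 81.8 FPKM in LN, SD, n = 2 each). The family held 0.00601% and 0.0194% of all FPKM in HN, and 0.0781% and 0.0743% in LN. The HN replicates differed 3.17-fold in this sum, against 1.15-fold for the LN replicates. The LN mean was therefore 7.71 times HN replicate 1 but 2.44 times HN replicate 2, and the size of the difference turns on which HN library is used.

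**Figure D1:**
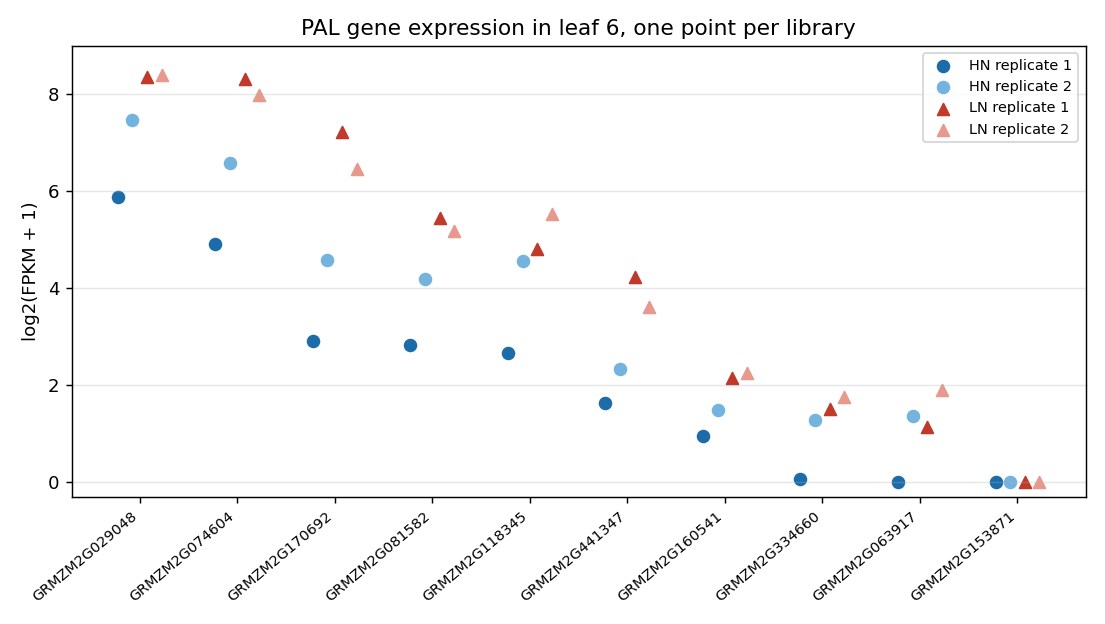
Expression of the 10 PAL genes as log2(FPKM + 1), 1 point per library, with circles for HN and triangles for LN and genes ordered by mean FPKM. In 8 genes both triangles lie above both circles, in GRMZM2G063917 they overlap, and GRMZM2G153871 is at 0 throughout.

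Between-treatment differences of single genes were tested with limma on log2(FPKM + 1), adjusted over all tested loci by the Benjamini-Hochberg method, and calls required an adjusted p below 0.05 and a log2 fold change beyond 1 in either direction. Of the 10 members 9 were tested and 0 were called, while 0.537% of all tested loci were called in either direction and 0.0481% as higher in LN. The 4 members named in the study's functional table are among genes that its own edgeR test called. That test was not repeated here. Without the adjustment, 5 of the 9 tested members passed both limits as higher in LN and none as lower. Over all tested loci, 5.86% passed as higher and 12.7% in either direction. These 5 were the 4 of the study's functional table and GRMZM2G029048. The study picked those 4 on these same libraries, so their direction is no independent evidence, here or in the counts below. The fold change alone was above 1 on the log2 scale for 6 of the 9, beside 7.62% of all tested loci. Both LN libraries lay above both HN libraries for 8 of the 9, beside 26.6% of all tested loci. The median log2 fold change of the 9 was 1.71, and that of all tested loci was -0.01. All 9 reached 1 FPKM in both LN libraries, and 6 reached it in both HN libraries too and would have passed the filter without LN. GRMZM2G160541, GRMZM2G334660 and GRMZM2G063917 were below 1 FPKM in HN replicate 1 and passed only with their LN values. The counts over the 9 are not counts over all members.

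The most abundant member in every library was GRMZM2G029048 in the chromosome 5 group. It had 57.8 and 176 FPKM in HN and 330 and 335 FPKM in LN. The LN replicates were nearly equal, the HN replicates differed 3.04-fold, and the groups did not overlap. Its log2 fold change was 1.71 with a standard error of 0.55, at a limma adjusted p of 0.197.

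GRMZM2G074604, the gene named PAL1, was second in every library. It had 29.0 and 94.5 FPKM in HN and 320 and 253 FPKM in LN. The lower LN library was 2.68 times the higher HN library. Its log2 fold change was 2.41 with a standard error of 0.58, at a limma adjusted p of 0.143.

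GRMZM2G170692, next in order in every library, had 6.56 and 23.0 FPKM in HN and 148 and 86.6 FPKM in LN. No other tested member had as large a log2 fold change, 3.09 (standard error 0.62, limma adjusted p = 0.122), and its lower LN library was 3.77 times its higher HN library. The remaining gene of the chromosome 5 group, GRMZM2G334660, lies next to GRMZM2G029048 and was low in every library. It had 0.0502 and 1.45 FPKM in HN and 1.85 and 2.38 FPKM in LN, with log2 fold change 0.95 at a limma adjusted p of 0.352. The 4 neighbours of chromosome 5 thus differed widely in level.

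On chromosome 4, GRMZM2G081582 had 6.13 and 17.4 FPKM in HN and 42.5 and 35.5 FPKM in LN, without overlap (log2 fold change 1.8, standard error 0.49, limma adjusted p = 0.162). Its neighbour GRMZM2G160541, the gene RefSeq lists as a transcribed pseudogene, had 0.949 and 1.82 FPKM in HN and 3.42 and 3.77 FPKM in LN. It too was without overlap, at a far lower level than GRMZM2G081582, with log2 fold change 0.97 at a limma adjusted p of 0.192. GRMZM2G063917 was listed at 0 in HN replicate 1 and had 1.57 FPKM in HN replicate 2, and in LN it had 1.21 and 2.72 FPKM. It is the single tested member whose treatments overlapped (log2 fold change 0.84, limma adjusted p = 0.465). GRMZM2G153871, away from that group, was listed at 0 in all 4 libraries and was not tested.

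On chromosome 2, GRMZM2G441347 had 2.11 and 4.05 FPKM in HN and 17.7 and 11.3 FPKM in LN. Its lower LN library was 2.78 times its higher HN library, and it had the lowest adjusted p of the family (log2 fold change 1.94, standard error 0.36, limma adjusted p = 0.112). GRMZM2G118345 had 5.36 and 22.7 FPKM in HN and 27 and 45.1 FPKM in LN. HN replicate 2 and LN replicate 1 nearly met, the lower LN library being 1.19 times the higher HN library, and the log2 fold change was 1.55 with a standard error of 0.68, at a limma adjusted p of 0.287.

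**Figure D2:**
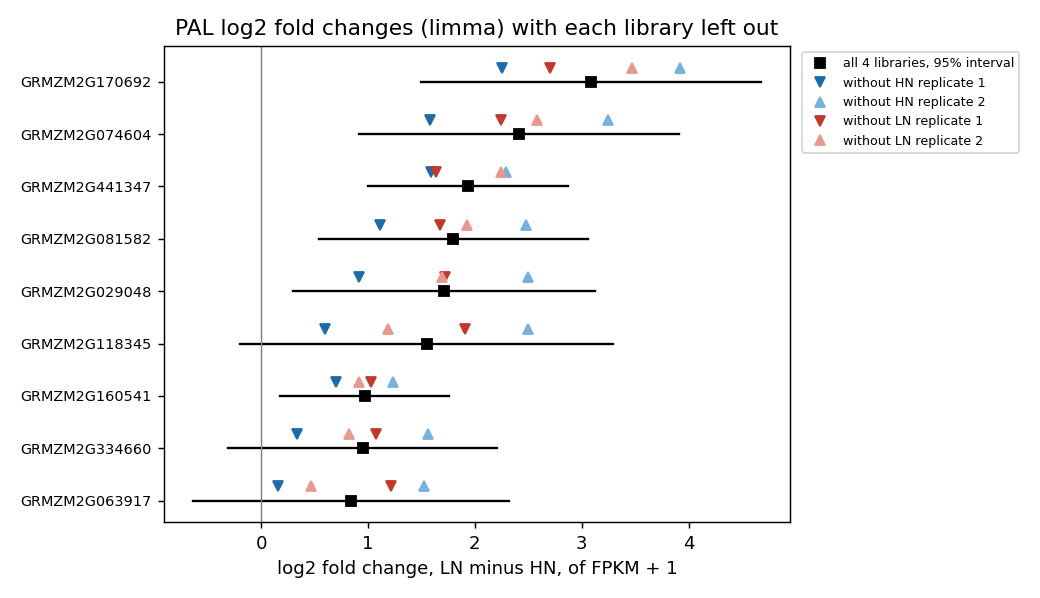
Log2 fold change (LN minus HN) of the 9 tested PAL genes. Squares are the limma estimates from 4 libraries with their 95% intervals, and triangles are estimates with 1 library left out. Every estimate is above 0, which was fixed for the 8 genes whose LN libraries both lay above both HN libraries. Leaving out HN replicate 1 gives the lowest estimate for each gene, 2.25 for GRMZM2G170692 and 0.16 for GRMZM2G063917.

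Without HN replicate 1, the log2 fold changes of the family ran from 0.16 to 2.25, and without HN replicate 2 from 1.24 to 3.92. The adjusted p stayed above 0.05 in each of these fits. With all 4 libraries, the unadjusted 95% intervals were 1.49 to 4.68 for GRMZM2G170692, 1.0 to 2.87 for GRMZM2G441347 and 0.92 to 3.91 for GRMZM2G074604. They were 0.54 to 3.06 for GRMZM2G081582, 0.29 to 3.12 for GRMZM2G029048 and 0.18 to 1.76 for GRMZM2G160541. The intervals of GRMZM2G118345, GRMZM2G334660 and GRMZM2G063917 included 0. The share of all tested loci whose interval excludes 0 was not counted.

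The HN replicates were set apart for the whole family. All 9 tested members were higher in HN replicate 2 than in HN replicate 1, beside 54.3% of all tested loci. Their median difference was 1.37 on the log2(FPKM + 1) scale, while the median over all tested loci was 0.04. The difference was above 1 for 7 of the 9 members and for 6.23% of all tested loci. In LN, the median difference between replicates (replicate 2 minus replicate 1) was 0.02 over the 9 members. HN replicate 2 lay between HN replicate 1 and the LN libraries for 8 members, all but GRMZM2G063917 among those tested. The share of all tested loci in that order was not counted. The labels do not say whether HN replicate 1 or 2 differed in handling, and the part of such a difference in the result was not tested.

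**Figure D3:**
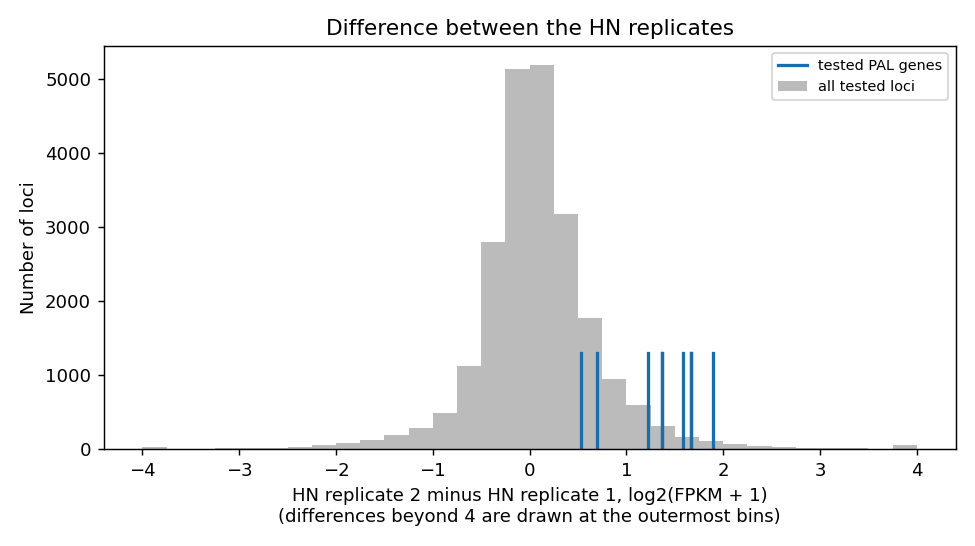
Histogram of HN replicate 2 minus HN replicate 1 in log2(FPKM + 1) over all tested loci (grey), with the 9 tested PAL genes as blue lines, some of which coincide. All 9 lines lie to the right of 0, and 7 lie above 1.

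The share of each gene in the family sum is formed within a library and does not depend on the scaling of libraries. GRMZM2G029048 held 53.5% and 51.3% of the family's FPKM in HN and 37.0% and 43.2% in LN. GRMZM2G074604 held 26.9% and 27.6% in HN and 35.9% and 32.7% in LN. GRMZM2G170692 held 6.07% and 6.71% in HN and 16.6% and 11.2% in LN. For these 3 genes the HN and LN shares did not overlap, with mean differences of -12.4, 7.0 and 7.51 percentage points (LN minus HN). The last of these was 4.77 points without LN replicate 1. Between the HN replicates, which differed 3.17-fold in the sum, the same shares differed by -2.20, 0.75 and 0.64 points (replicate 2 minus replicate 1). Between the LN replicates they differed by 6.21, -3.20 and -5.48 points in the same sense.

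With 2 libraries against 2, an exact two-sided permutation test cannot give a p below 0.333, which is what it gave for each of these 3 shares and for GRMZM2G081582 (5.67% and 5.08% in HN, 4.77% and 4.58% in LN). The shares of GRMZM2G118345 (4.96% and 6.63% in HN, 3.03% and 5.81% in LN) and GRMZM2G441347 (1.95% and 1.18% in HN, 1.99% and 1.45% in LN) overlapped between treatments. The other 4 members held less than 1% each in every library. The 3 leading genes together held 86.5% and 85.7% in HN and 89.5% and 87.0% in LN, so the family sum stayed with the chromosome 5 group in both treatments.

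**Figure D4:**
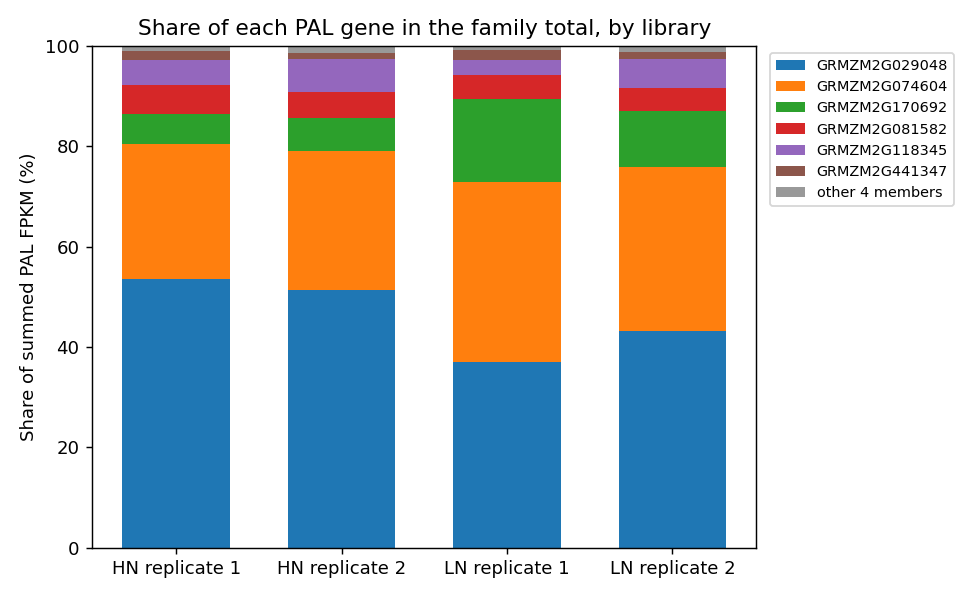
Share of each PAL gene in the summed PAL FPKM, in percent, 1 bar per library, with the 4 lowest members joined in grey. The lowest segment, GRMZM2G029048, takes 53.5% and 51.3% in HN and 37.0% and 43.2% in LN, while the segment of GRMZM2G170692 takes 6.07% and 6.71% in HN and 16.6% and 11.2% in LN.

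Set against GRMZM2G029048 in the same library, GRMZM2G074604 stood at 0.502 and 0.538 of its FPKM in HN and at 0.969 and 0.756 in LN. GRMZM2G170692 stood at 0.113 and 0.131 in HN and at 0.450 and 0.258 in LN. The GRMZM2G170692 ratio was thus 2.90 times as high in LN on average, and its HN values lay close together although the levels behind them did not. The ratio of GRMZM2G081582 was 0.106 and 0.0989 in HN and 0.129 and 0.106 in LN, a gap far smaller than the spread of the LN replicates.

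The order of the genes was the same in HN replicate 1 as in LN replicate 1 and the same in HN replicate 2 as in LN replicate 2, apart from a tie at 0 in HN replicate 1. The first 3 places were the same in all 4 libraries. GRMZM2G081582 stood above GRMZM2G118345 in both libraries numbered 1 and below it in both libraries numbered 2. GRMZM2G334660 and GRMZM2G063917 traded places in the same way.

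The 5 annotated loci whose centred log2(FPKM + 1) values over the 4 libraries lay closest to those of GRMZM2G029048 were GRMZM2G343157, GRMZM2G000812, GRMZM2G013781, GRMZM5G870932 and GRMZM2G142661, at Euclidean distances of 0.09 to 0.15. RefSeq gives TIFY1 and ZIM26 as names of GRMZM2G343157, which had 0.843 and 4.53 FPKM in HN and 9.68 and 10.3 FPKM in LN. Within the family, GRMZM2G081582 was the closest, at 0.26, with 31 annotated loci closer. GRMZM2G170692 was the farthest, at 1.49, with 3223 annotated loci closer. The distances are descriptions over 4 libraries that share both treatments.

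Enzymes before and after PAL were taken from a list of 35 gene names, and the 18 whose role the study's table or RefSeq names were followed. None of the 18 was called in either direction by limma. Without the adjustment, 12 were higher in LN and 0 were lower, beside 5.86% of all tested loci as higher and 12.7% in either direction. The median log2 fold change of the 18 was 1.35. Of the 12, GRMZM2G147245, GRMZM2G048522 and GRMZM2G026930 were below 1 FPKM in both HN libraries and passed the filter on their LN values alone. For these genes the filter itself fixed the direction. The study itself picked 11 of the 18 on these libraries, so their direction is no independent evidence. Of the other 7, 1 was higher at that threshold and the median was 0.11. Of the 17 listed names that no source annotates, 15 were tested, and 1 was higher and 1, GRMZM2G100158, was lower at that threshold (log2 fold change -1.40), with a median of 1.03.

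Upstream, GRMZM2G365160, a DAHP synthase that opens the shikimate pathway, had 5.95 and 29.0 FPKM in HN and 114 and 79.9 FPKM in LN. The other annotated upstream enzyme, EPSP synthase (GRMZM5G877500), had 7.67 and 8.52 FPKM in HN and 15.7 and 19.7 FPKM in LN. Its log2 fold change was 1.04 at a limma adjusted p of 0.135. The next enzyme after PAL, cinnamate 4-hydroxylase, was mainly GRMZM2G139874, with 26.6 and 64.5 FPKM in HN and 179 and 156 FPKM in LN. As in the PAL genes, HN replicate 2 was the higher HN library in each of these, though by little in EPSP synthase. Of the 4-coumarate:CoA ligases, GRMZM2G054013 differed by 1.62 on the log2 scale at a limma adjusted p of 0.171. In GRMZM2G048522, too, both LN libraries lay above both HN libraries. GRMZM2G075333 had 13.6 and 37.6 FPKM in HN and 33.2 and 69.4 FPKM in LN, and its treatments overlapped. Overlap was also seen in GRMZM2G055320, listed for this step but not named by any source here, with log2 fold change -0.43.

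The 6 annotated enzymes of later lignin steps gave unlike values. The cinnamyl alcohol dehydrogenase GRMZM2G443445, of the last step to lignin monomers, had 3.17 and 14.2 FPKM in HN and 20.7 and 43.8 FPKM in LN, with log2 fold change 1.97 at a limma adjusted p of 0.227. Of the methyltransferases of lignin monomers, CCOAOMT2 (GRMZM2G099363) had 31.4 and 44.5 FPKM in HN and 54.0 and 65.7 FPKM in LN, with log2 fold change 0.66 at a limma adjusted p of 0.272. Both genes had the LN libraries above the HN libraries. The log2 fold change was 0.11 for CCoAOMT1 (GRMZM2G127948), another such methyltransferase, -0.61 for the cinnamoyl-CoA reductase GRMZM2G131205, -0.07 for its counterpart GRMZM2G131836, and -0.11 for a second cinnamyl alcohol dehydrogenase, GRMZM5G844562 (BM1). The limma adjusted p was 0.865 for CCoAOMT1, 0.562 for GRMZM2G131205 and 0.890 for BM1. Scaling the libraries to equal FPKM sums moved the median of all tested loci from -0.01 to 0.59, a shift about as large as the difference of GRMZM2G131205, and no direction is read from these 4.

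In the flavonoid branch all 5 enzymes had both LN libraries above both HN libraries, beside 26.6% of all tested loci, and the study had picked 4 of the 5 on these libraries. The chalcone synthase C2 (GRMZM2G422750), which opens that branch, had 98.6 and 233 FPKM in HN and 793 and 635 FPKM in LN, log2 fold change 2.22 at a limma adjusted p of 0.127. The chalcone isomerase CHI had 1.27, the flavanone 3-hydroxylase GRMZM2G062396 had 1.58 and the dihydroflavonol reductase A1 (GRMZM2G026930) had 1.29 on the same scale. A1 was low throughout, with 0.313 and 0.267 FPKM in HN and 2.73 and 1.67 FPKM in LN, and passed the filter on its LN values alone. Of the 18 enzymes, 16 were higher in HN replicate 2 than in HN replicate 1, with a median ratio of 2.21, beside 54.3% of all tested loci.

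MYB31 (GRMZM2G050305) and MYB42 (GRMZM2G419239) are related MYB factors known to repress lignin genes. MYB31 had 2.04 and 2.80 FPKM in HN and 27.8 and 9.99 FPKM in LN, log2 fold change 2.39 at a limma adjusted p of 0.127. MYB42 had 13.5 and 14.0 FPKM in HN and 7.59 and 4.74 FPKM in LN, log2 fold change -1.07 at a limma adjusted p of 0.156. The HN replicates of both lay close together, unlike those of the PAL genes. CesA12 (GRMZM2G142898), a cellulose synthase of secondary walls, had 0.724 and 2.51 FPKM in HN and 3.66 and 3.95 FPKM in LN, with log2 fold change 0.97 at a limma adjusted p of 0.278. GRMZM2G445905, listed as a secondary wall marker but not named by any source here, had 31.0 and 35.9 FPKM in HN and 29.6 and 34.9 FPKM in LN, and its treatments overlapped. A further listed marker, GRMZM2G037413, was listed at 0 in 3 of the 4 libraries. The part of secondary wall forming cells in the PAL values was not tested.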

How the data were processed

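The authors trimmed the reads, aligned them to B73 RefGen_v3 with TopHat2 and assembled transcripts with StringTie. They deposited FPKM per locus, which are not counts, so their edgeR test was not repeated. The table has 44070 rows for 43110 distinct loci, and each locus was used once. A locus entered the test if 2 or more libraries held 1 FPKM or more. Treatments were compared on log2(FPKM + 1) by limma (version 3.58.1 under R 4.3.3), using lmFit and a trended eBayes without a block. Such fold changes understate differences of low loci. The fit was tested on simulated data. Other steps ran in Python 3.11.15 with scipy 1.17.1, pandas 2.3.3, numpy 2.4.6 and, for plots, matplotlib 3.10.9.

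Members and lists were chosen with earlier results of these data known. Named genes were the 10 members, the annotated enzyme of highest mean FPKM per step, both MYB factors, the markers and the 5 loci nearest to the leading member. Further annotated enzymes were added after their values were seen (GRMZM2G443445, GRMZM2G099363, GRMZM2G131836, GRMZM2G147245, GRMZM2G048522 and GRMZM2G075333). Of the 35 listed enzymes, 17 were left out as not named by the study's table or RefSeq or not found. Of the bundle sheath markers, GRMZM2G113033 alone was both found and named by a source. GRMZM2G100158, GRMZM2G001696, GRMZM2G055320, GRMZM2G445905 and GRMZM2G037413 are given although no source names their role. GRMZM2G100158, GRMZM2G001696 and GRMZM2G055320 were chosen after their values were seen. Of the RefSeq table (Zm-B73-REFERENCE-NAM-5.0) only names and gene types were used.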

Additional observations from a re-analysis of the deposited data

Results flagged for a closer look

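GRMZM2G074604 (PAL1) stands on a second locus with the same bounds on chromosome 5 as the one used above, and the levels, sums and shares of the family given above leave it out. That second locus was listed at 0 in both HN libraries and had 1.60 FPKM in LN replicate 1 and 1.22 FPKM in LN replicate 2, a signal in unused data above the level of the HN libraries. The second locus passed the filter on its LN values alone, so the filter itself fixed the direction. Its limma adjusted p of 0.159 is therefore no evidence of a direction. Counting it in moved the change in the share of GRMZM2G074604 to 7.12 points.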

How the results depend on the processing

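No PAL member was called under a pseudocount of 0.1, no filter, a minimum of 5 FPKM, equal medians, equal FPKM sums or quantile normalization. The same held for an untrended fit, the replicate block and a call without a fold change limit. All 105 refitted member fold changes, those with 1 library left out included, were positive. For 8 of the 9 tested members, however, both LN libraries lay above both HN libraries. For those 8, leaving out 1 library or changing the pseudocount, filter, trend or block could not turn the sign. The lowest limma adjusted p of a member was 0.0570, at equal FPKM sums. That scaling moved the median log2 fold change of all tested loci to 0.59 and that of the members to 2.41. An unadjusted p under 0.05 with the same fold change limit, an alternative added after the data were seen, gave 5 members. Over all loci, 123 calls became 23 without a filter on low FPKM, 60 at equal FPKM sums and 617 once replicate numbers entered as a block, and with 1 library left out they ranged from 0 to 16. The deviations of same-numbered libraries correlated at 0.203 across loci, and no source says that the numbers mark pairs. With the block 0 members were called. In fits with 1 library left out, the lone library is assumed to vary like the other treatment. The log2 ratio of the summed PAL FPKM, 1.89, ranged from 1.28 without HN replicate 1 to 2.95 without HN replicate 2, and was 2.59 at equal FPKM sums. For the 3 leading genes the HN and LN shares did not overlap, so leaving out 1 library could not turn the direction of the change. The change for GRMZM2G170692 ranged from 4.77 to 10.2 points. The shares of GRMZM2G118345 and GRMZM2G441347 overlapped between treatments, and their changes turned sign with some libraries left out. The causes of these shifts were not tested.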
